A study of Homo sapiens with 60 samples.

Results

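The genes described here are 9 that encode protein parts of lipoproteins or help to build them: APOA1, APOA2, APOB, APOC1, APOC3, APOE, APOH, APOM and MTTP. They were chosen by symbol, as the rows of the gene count table whose Ensembl identifier maps to these names, and all 9 were found among 60675 genes. Their RNA was measured by RNA sequencing in HepG2, a human hepatocellular carcinoma line that still secretes many plasma proteins of the liver. Cells were exposed for 24 h to an ethanol extract of a herbal medicine at 500, 100 or 20 µg/mL, or to vehicle. The vehicle group had 3 libraries. Cnidii Rhizoma (Cnidium rhizome), Rehmanniae Radix Preparata (processed Rehmannia root), Astragali Radix (Astragalus root) and Cinnamomi Cortex (cinnamon bark) had 3 libraries at each dose. Angelicae Gigantis Radix (Angelica root), Paeoniae Radix (peony root) and the herbal formula Sagunja-tang had 2, and the formula Samul-tang had 1, so 60 libraries in 25 groups were used. The labels give the vehicle as 0.1% DMSO, while the description of the series gives 2%. That description also says that extracts toxic below 500 µg/mL were given at lower concentrations, whereas every label used here gives 500, 100 or 20 µg/mL, so the doses are those of the labels. All libraries come from 1 cell line, and their titles all name the same batch, D. The labels do not say whether replicates were separate cultures, so the p-values measure the spread between these libraries, which may be technical.

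Hepatocytes export triglyceride and cholesterol in very low density lipoprotein. Each particle is built around a single apolipoprotein B, the very large protein encoded by APOB, onto which the microsomal triglyceride transfer protein encoded by MTTP loads lipid as it enters the endoplasmic reticulum. Apolipoprotein A-I and A-II, encoded by APOA1 and APOA2, are the main proteins of high density lipoprotein (HDL), and apolipoprotein M, from APOM, rides on HDL as the carrier of sphingosine-1-phosphate. The small exchangeable apolipoproteins C-I, C-III and E, from APOC1, APOC3 and APOE, move between particles: C-III slows the lipolysis and clearance of triglyceride-rich particles, and E is the ligand by which the liver takes up remnants. APOH encodes apolipoprotein H, or beta-2-glycoprotein I, a plasma protein that binds phospholipids.

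To show the DNA beside the measurements, the sequence before a RefSeq start of 4 members is printed (GRCh38.p14), 5′ to 3′ on the strand of the gene. APOE and APOC1 are neighbours on chromosome 19 that rose together with 1 extract described below, and APOH and MTTP fell with it. From the 250 bases before the start, the longest stretch outside annotated untranslated exons of GENCODE 29 is given, and capitals mark matches to words of 5 motifs searched on both strands. The APOE stretch lies before the gene as annotated in GENCODE 29. Those of APOC1, APOH and MTTP lie within the annotated span of the gene, downstream of its outermost start.

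APOE, chr19:44905546-44905753, plus strand, 208 bases, before the most upstream of 3 RefSeq starts: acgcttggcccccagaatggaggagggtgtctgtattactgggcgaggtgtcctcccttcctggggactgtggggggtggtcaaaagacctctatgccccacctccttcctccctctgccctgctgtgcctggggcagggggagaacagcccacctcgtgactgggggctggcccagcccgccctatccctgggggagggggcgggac
APOC1, chr19:44914490-44914671, plus strand, 182 bases: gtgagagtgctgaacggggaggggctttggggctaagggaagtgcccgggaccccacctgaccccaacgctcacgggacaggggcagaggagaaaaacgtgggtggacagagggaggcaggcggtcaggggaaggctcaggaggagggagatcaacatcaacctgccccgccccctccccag
APOH, chr17:66229418-66229665, minus strand, 248 bases: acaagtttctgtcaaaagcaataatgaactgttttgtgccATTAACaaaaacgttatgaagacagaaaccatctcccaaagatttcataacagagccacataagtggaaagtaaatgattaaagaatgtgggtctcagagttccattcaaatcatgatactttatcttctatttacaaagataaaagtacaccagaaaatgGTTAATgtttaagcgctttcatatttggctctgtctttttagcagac
MTTP, chr4:99574574-99574706, plus strand, 133 bases, before the downstream of 2 RefSeq starts: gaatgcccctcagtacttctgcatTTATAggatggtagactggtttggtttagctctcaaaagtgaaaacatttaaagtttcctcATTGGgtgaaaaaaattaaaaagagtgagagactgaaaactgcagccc

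The APOH stretch held the HNF1 word GTTAAT on the strand of the gene, 49 to 44 bases before the start, and on the opposite strand, printed as ATTAAC, 210 to 205 bases before it. The full window before the downstream MTTP start held the nuclear receptor word AGGTCA on the opposite strand at 50 to 45 bases, in the part not printed. It held CCAAT on the opposite strand at 165 to 161 bases and TATAA on the opposite strand at 226 to 222 bases. In the window before the most upstream APOE start, TATAA lay 31 to 27 bases before the start and overlapped by 1 base with a CCAAT word on the opposite strand at 27 to 23, both in the part not printed. The window before the APOE start at 44906401 held CCAAT on the opposite strand at 202 to 198 bases, and no word was before the remaining APOE start. The APOA2 window, not printed, held the FOXA word TGTTTAC on the opposite strand at 42 to 36 bases. No word was in the APOC1 window, in that of APOM or before the upstream MTTP start. Among 35116 RefSeq windows of the same length, AGGTCA was in 12.08%, GTTAAT in 6.231%, TGTTTAC in 2.979%, CCAAT in 32.008% and TATAA in 18.926%, so most of these words are common. A match describes the letters of these windows and is not a binding site. Windows for 6 of the 9 members were in the table, and APOA1, APOB and APOC3 were not among them.

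The summed count per library ran from 21485882 to 34643028. The HepG2 label fitted its markers: ALB ranged from 6715 to 12787 CPM (counts scaled to a common library size) over the 60 libraries and AFP from 5535 to 15222, while DCN of fibroblasts and PTPRC of leukocytes were at 0 in all 60. Of the 7 fibroblast markers PDGFRB was the main one detected, at 3.51 to 19.4 CPM, and the 5 endothelial markers summed to 1.4 to 3.32 CPM. Leukocyte markers summed to 1131 to 2458 CPM, most of it lysozyme (LYZ, 1046 to 2353 CPM), with CD3E at 0 in 59 libraries. CD68 (38.7 to 173 CPM), CD14 (0.931 to 3.98 CPM) and CD79A (0.0468 to 1.93 CPM) were detected in all 60. In bulk RNA, fewer cells of a type and less RNA per cell cannot be told apart.

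On the CPM scale, in which counts are scaled by library size and by the TMM factors of edgeR, APOB was the most abundant member in vehicle cells, at 15203 ± 722 CPM (SD, n = 3). APOA2 stood at 2602 ± 208, APOH at 2285 ± 114, APOA1 at 1372 ± 137, APOE at 838 ± 30.8 and APOC1 at 211 ± 14.5 CPM in the same 3 libraries. APOM had 73.2 ± 0.807, APOC3 55.3 ± 3.84 and MTTP 53.1 ± 1.45 CPM. All 9 passed the filter on low counts. Per kilobase of the longest annotated transcript the order changed: APOA2 led with 2807 CPM per kb, before APOH with 1943, APOA1 with 1118 and APOB with 1077. Per kilobase of all annotated exons APOB, with 1025, stood above APOA1, with 963. By longest transcript the others were lower. APOE had 693 and APOC1 307 CPM per kb, and APOC3, APOM and MTTP had 91.5, 61.8 and 13.0. The 9 genes held 2.43% ± 0.0433 of all counts in vehicle (SD, n = 3), and APOB alone held 1.62%.

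In GENCODE 29 coordinates (GRCh38), APOA1 (ENSG00000118137) lies on chromosome 11 from 116835751 to 116837950 and APOC3 (ENSG00000110245) beside it from 116829706 to 116833072. APOE (ENSG00000130203) lies on chromosome 19 from 44905754 to 44909393 and APOC1 (ENSG00000130208) from 44914247 to 44919349. APOB (ENSG00000084674) occupies 21001429 to 21044073 of chromosome 2, MTTP (ENSG00000138823) 99563761 to 99623999 of chromosome 4 and APOA2 (ENSG00000158874) 161222292 to 161223631 of chromosome 1. APOH (ENSG00000091583) occupies 66212033 to 66256525 of chromosome 17 and APOM (ENSG00000204444) 31652416 to 31658210 of chromosome 6. APOM overlaps BAG6 on the opposite strand, which had 441.21% of the mean count of APOM, and MTTP overlaps TRMT10A, with 11.78% of the count of MTTP. The gene AC011481.3, on the same strand as APOC1, had 1.51% of its count. The libraries were made with a directional kit, but the strand setting of the counting is not given in the sources used here, so reads of such a pair may not be separated.

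**Figure D1:**
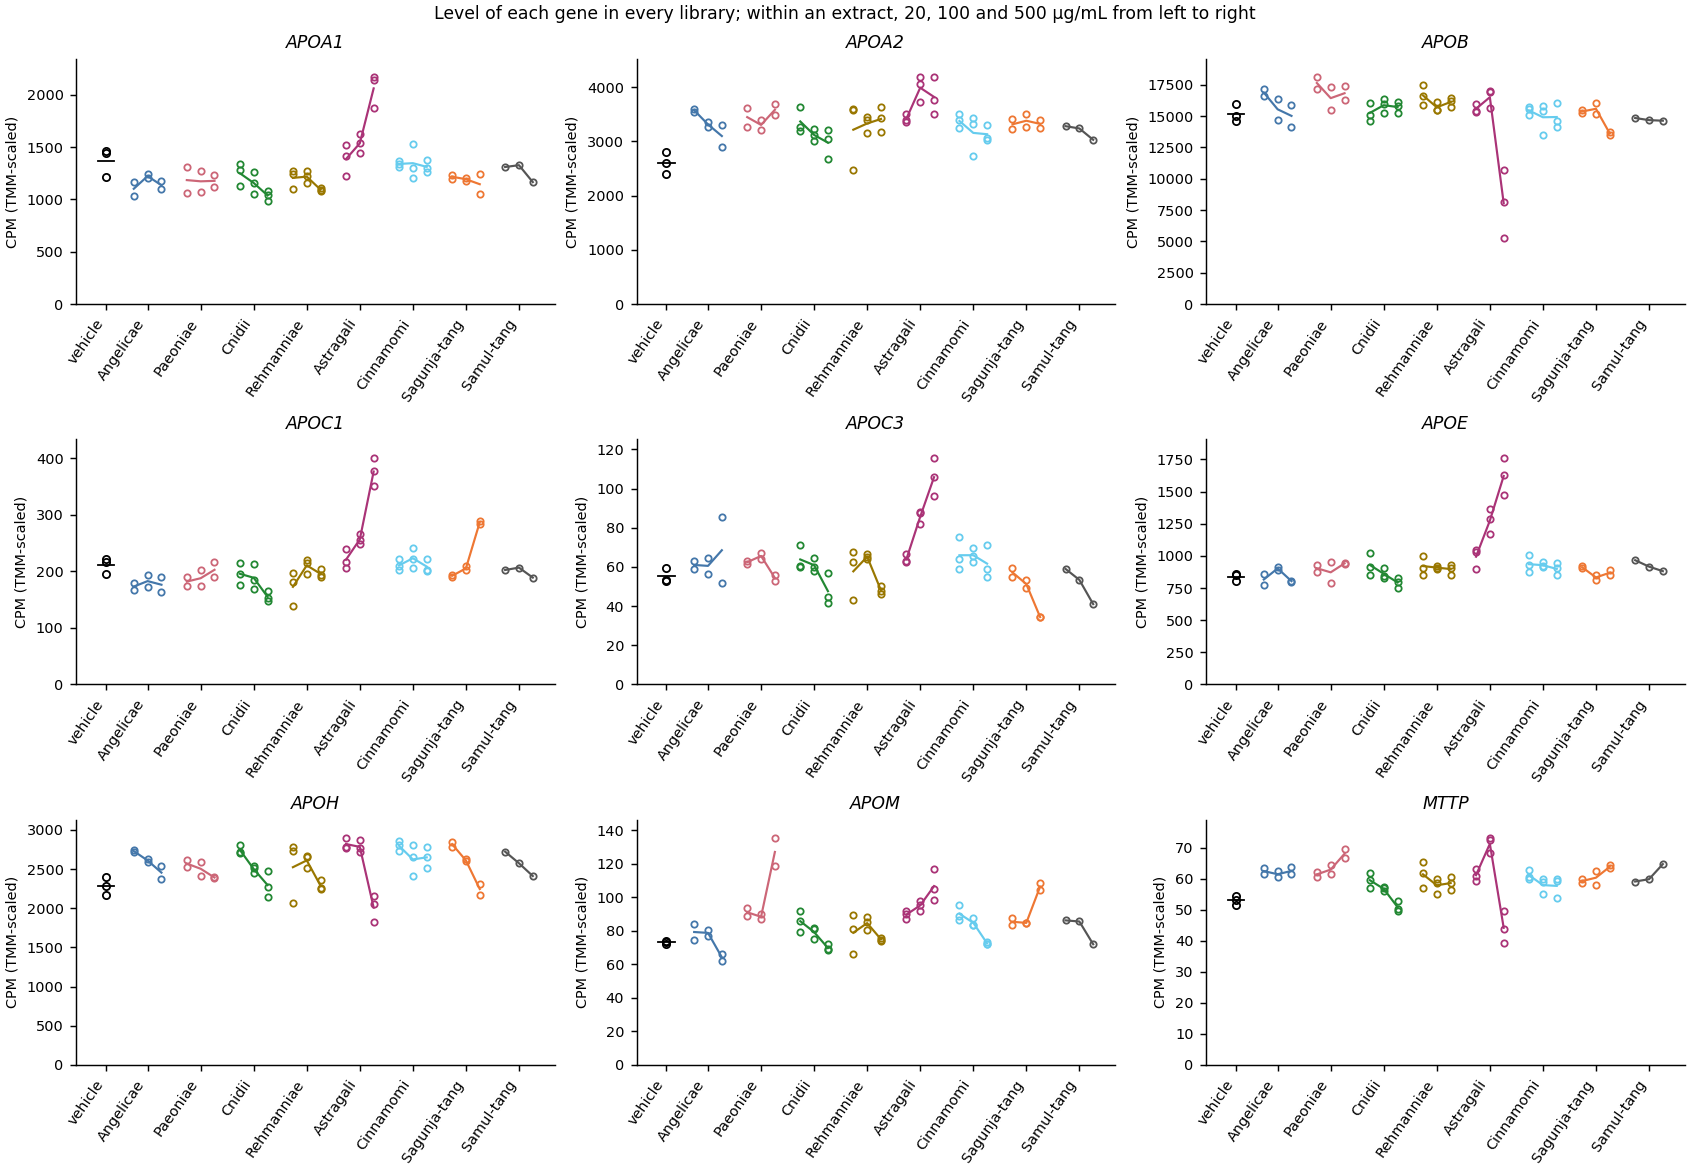
Level of each member in every library, as CPM scaled by the TMM factors (vertical axis, from 0), for vehicle and for 20, 100 and 500 µg/mL of each extract from left to right. Circles are libraries and lines join group means, and Samul-tang has 1 library per dose. With Astragali Radix, APOB fell to between 5305 and 10706 CPM at 500 µg/mL while APOC1 reached 350 to 401 CPM, and APOM was highest with 500 µg/mL Paeoniae Radix.

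The main comparison was 500 against 20 µg/mL within each extract, which uses no vehicle library and stays within one code prefix of the labels. It asks what more of the same extract does to each gene. Tests were edgeR quasi-likelihood tests fitted on all 60 libraries, with p adjusted by Benjamini-Hochberg over 16692 genes, and a gene was called at an adjusted p below 0.05. Astragali Radix moved 8 of the 9 members, 5 up and 3 down, where 69.5% of all genes were called (34.2% higher and 35.3% lower). Cnidii Rhizoma lowered 7 of 9 and raised none, where 18.4% of genes were called, 8.83% as lower. Sagunja-tang raised 2 and lowered 2, where 10.4% of genes were called. Paeoniae Radix raised APOM alone among the members, against 30.6% of all genes called, and Cinnamomi Cortex lowered APOM alone, against 0.809%. No member was called with Angelicae Gigantis Radix (1.05% of genes called) or Rehmanniae Radix Preparata (1.41%). At an unadjusted p below 0.05, edgeR had 1 member there with Angelicae Gigantis Radix (APOM) and 2 with Rehmanniae Radix Preparata (APOC3 and APOH), and DESeq2 called 1 and 0. All 9 members are abundant, and among the 3128 genes with a mean of at least 59.4 CPM, that of the least abundant member, the shares called were higher: 84.5% with Astragali Radix, 31.7% with Cnidii Rhizoma, 18.5% with Sagunja-tang, 46.6% with Paeoniae Radix, 2.33% with Cinnamomi Cortex, 2.94% with Angelicae Gigantis Radix and 3.07% with Rehmanniae Radix Preparata. The median change of the members was 0.25 on the log2 scale with Astragali Radix and −0.26 with Cnidii Rhizoma, beside −0.02 and −0.00 over all genes tested.

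**Figure D2:**
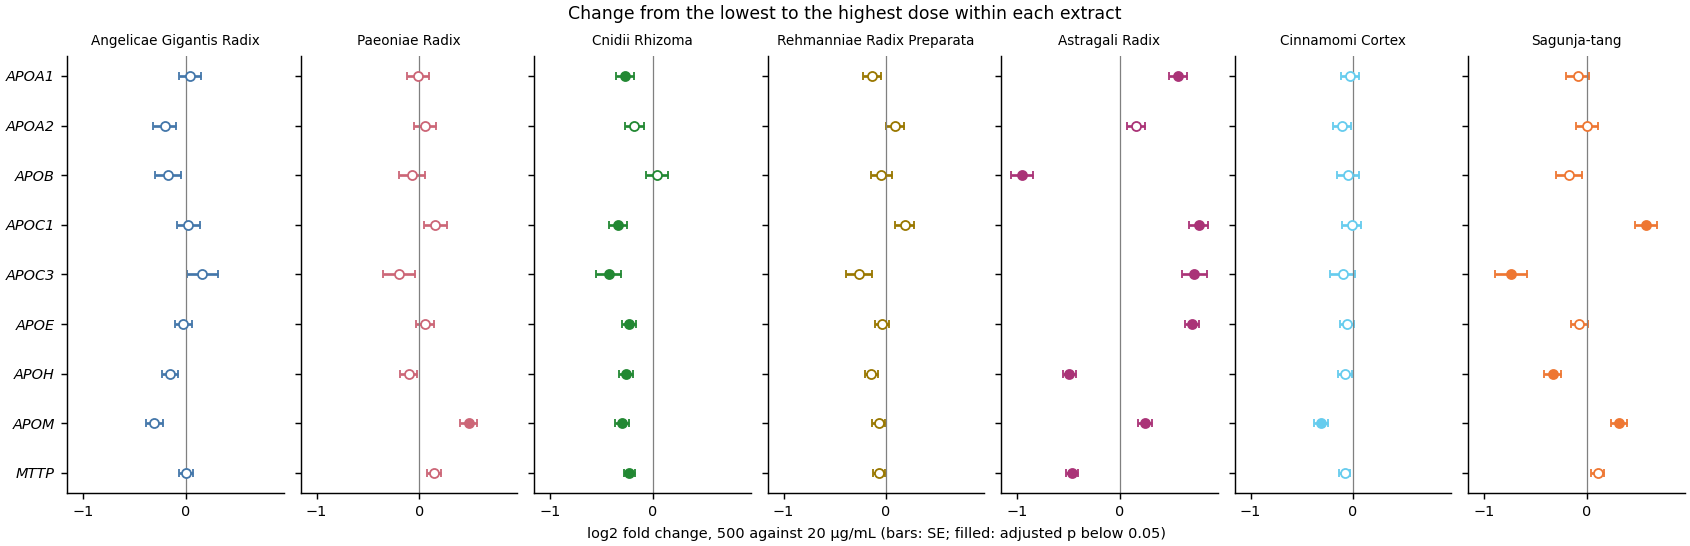
Fold change from 20 to 500 µg/mL of each member (log2 scale, horizontal axis) in each of 7 extracts, with bars of 1 SE. Filled points have an adjusted p below 0.05 in edgeR: 8 with Astragali Radix on both sides of 0, 7 with Cnidii Rhizoma all below 0, 4 with Sagunja-tang, and 1 each with Paeoniae Radix and Cinnamomi Cortex.

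The core pair of particle assembly, APOB and MTTP, fell together with 500 µg/mL Astragali Radix. APOB had 8147, 5305 and 10706 CPM at 500 µg/mL and 15444, 15320 and 16002 CPM at 20 µg/mL. All 3 libraries at the high dose lay below every other library of the series, and they differed among themselves more than those of any other group. The fall was 1.94-fold (log2 −0.95 ± 0.105 SE, adjusted p = 6.8e-11). Leaving out 1 library moved it between −1.21 and −0.73, the smaller value without replicate 2 at 500 µg/mL. At 100 µg/mL APOB stood at 15634, 16897 and 17006 CPM, within or above the range at 20 µg/mL, so the loss appeared between 100 and 500 µg/mL. In the other 6 extracts the change of APOB from 20 to 500 µg/mL lay between −0.17 and 0.04 and was not called. The libraries of Sagunja-tang at 500 µg/mL, with 13532 and 13703 CPM, lay below those at 20 µg/mL, with 15251 and 15486 CPM (log2 −0.17, adjusted p = 0.46).

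MTTP did not follow the dose of Astragali Radix in a single direction. It had 59.5, 61.1 and 63.1 CPM at 20 µg/mL, 68.3, 72.4 and 73.2 CPM at 100 µg/mL and 39.2, 43.9 and 49.6 CPM at 500 µg/mL. The 3 doses did not overlap, and the highest and the lowest group means of this gene in the series both belonged to this extract. It rose by 0.22 ± 0.0541 on the log2 scale at 100 against 20 µg/mL (adjusted p = 0.0015) and fell by 0.46 ± 0.0558 at 500 against 20 µg/mL (adjusted p = 6.5e-10). TRMT10A, which overlaps MTTP, fell by 0.85 in the latter comparison (adjusted p = 5.1e-09), at 3.36 against 6.15 CPM. Its part in the change of MTTP was not tested. Cnidii Rhizoma lowered MTTP from 57.2, 59.7 and 61.9 CPM to 49.5, 50.3 and 52.9 CPM (log2 −0.23 ± 0.0551, adjusted p = 0.0023). In the remaining 5 extracts it changed by −0.08 to 0.15 and was not called.

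Of the HDL proteins, APOA1 rose with Astragali Radix and fell with Cnidii Rhizoma. With Astragali Radix it had 2141, 2167 and 1874 CPM at 500 µg/mL and 1522, 1410 and 1224 CPM at 20 µg/mL, a rise of 1.49-fold (log2 0.57 ± 0.0884, adjusted p = 2.2e-07). The 3 libraries at 500 µg/mL were the highest of the series for this gene. With Cnidii Rhizoma it had 987, 1046 and 1082 CPM against 1126, 1286 and 1339 CPM, which is 1.2-fold lower (log2 −0.27, adjusted p = 0.027). This call was lost without replicate 1 (log2 −0.23) or 2 (−0.27) at 500 µg/mL and without replicate 2 (−0.25) or 3 (−0.22) at 20 µg/mL, with adjusted p from 0.062 to 0.15.

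APOA2, the partner of APOA1 on HDL, was not called at 500 against 20 µg/mL in any of the 7 extracts, with changes from −0.21 to 0.16. Its lowest group was vehicle, and its highest was 100 µg/mL Astragali Radix with 4184, 3728 and 4063 CPM. Within this extract the libraries at 500 µg/mL (4185, 3511 and 3769 CPM) lay just above those at 20 µg/mL (3509, 3388 and 3357 CPM).

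APOM, the sphingosine-1-phosphate carrier, moved in more extracts than any other member. It rose with Paeoniae Radix to 119 and 135 CPM at 500 µg/mL, from 88.6 and 93.6 CPM at 20 µg/mL (log2 0.48 ± 0.0808, adjusted p = 6.5e-06), and these 2 libraries were the highest of the series. With Sagunja-tang the values were 104 and 109 CPM against 87.5 and 83.3 CPM (log2 0.32 ± 0.0801, adjusted p = 0.0056), and with Astragali Radix 117, 105 and 98.5 CPM against 90.1, 87.3 and 91.7 CPM (log2 0.25 ± 0.0656, adjusted p = 0.00085). Thus the 3 extracts that raised it reached about 100 CPM or more in nearly every library at the high dose. It fell with Cnidii Rhizoma to 68.3, 72.1 and 68.9 CPM from 79.6, 85.7 and 92.1 CPM (log2 −0.30 ± 0.0664, adjusted p = 0.00084). With Cinnamomi Cortex it fell to 73.4, 72.1 and 72.1 CPM from 86.4, 95.2 and 88.9 CPM (log2 −0.31 ± 0.0659, adjusted p = 0.0067), a level near the 72.3 to 73.9 CPM of vehicle. The lowest group was Angelicae Gigantis Radix at 500 µg/mL, with 66.3 and 62.2 CPM against 84.4 and 74.2 CPM at 20 µg/mL, a difference of −0.30 that missed the threshold (adjusted p = 0.053) and passed it with DESeq2 (0.018).

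The calls for APOM with Sagunja-tang and Cinnamomi Cortex were lost without single libraries. With Sagunja-tang the value was 0.29 without replicate 2 at 500 µg/mL (adjusted p = 0.075) and 0.28 without replicate 2 at 20 µg/mL (0.094), and with Cinnamomi Cortex it was −0.27 without replicate 2 at 20 µg/mL (0.076). The overlapping gene BAG6 rose by 0.95 with Astragali Radix (697 against 361 CPM, adjusted p = 8e-24) and by 0.16 with Paeoniae Radix (adjusted p = 0.012). With Cnidii Rhizoma, Cinnamomi Cortex and Sagunja-tang its values were −0.07, −0.06 and 0.03 and were not called, while APOM was. The part of BAG6 in the values of APOM was not tested.

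The exchangeable apolipoproteins rose together with Astragali Radix. APOE, the remnant ligand, had 1033, 1047 and 901 CPM at 20 µg/mL, 1287, 1362 and 1173 CPM at 100 µg/mL and 1764, 1627 and 1472 CPM at 500 µg/mL. The 3 doses did not overlap, and APOE rose by 0.36 at 100 µg/mL (adjusted p = 8.5e-05) and by 0.71 ± 0.0702 at 500 µg/mL (adjusted p = 3.8e-12), each against 20 µg/mL. APOC1, its neighbour on chromosome 19 and an inhibitor of particle uptake, rose 1.71-fold, from 240, 216 and 206 CPM to 401, 378 and 350 CPM (log2 0.77 ± 0.0899, adjusted p = 3e-10). APOC3 rose 1.66-fold, from 66.3, 62.3 and 62.9 CPM to 116, 96.0 and 106 CPM (log2 0.73 ± 0.121, adjusted p = 9.4e-07). At 100 µg/mL APOC3 already had 87.3, 81.7 and 87.9 CPM (log2 0.42, adjusted p = 0.0062), so it stood above the low dose in all 3 libraries. These 3 genes reached their highest values of the series in the 3 libraries at 500 µg/mL.

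Sagunja-tang moved APOC1 and APOC3 in opposite directions. APOC1 rose to 290 and 284 CPM from 193 and 191 CPM (log2 0.58 ± 0.11, adjusted p = 0.00021). APOC3 fell to 34.4 and 34.4 CPM from 54.8 and 59.7 CPM (log2 −0.73 ± 0.156, adjusted p = 0.0009). The group means of both genes at 100 µg/mL, 205 and 51.2 CPM, lay between those of the other doses, and no member was called there. These were the lowest values of APOC3 in the 60 libraries, while APOE stood at 887 and 852 CPM against 918 and 906 CPM and was not called (log2 −0.07).

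Cnidii Rhizoma lowered all 3 exchangeable apolipoproteins. APOC1 had 147, 152 and 165 CPM at 500 µg/mL against 177, 195 and 216 CPM at 20 µg/mL (log2 −0.34 ± 0.0905, adjusted p = 0.0057), the lowest group mean of this gene. APOC3 had 56.8, 41.5 and 44.5 CPM against 59.8, 60.5 and 71.2 CPM (log2 −0.43 ± 0.124, adjusted p = 0.011), and APOE had 798, 750 and 832 CPM against 851, 913 and 1023 CPM (log2 −0.23, adjusted p = 0.017). No library at the high dose reached the lowest at the low dose. Without replicate 3 at 20 µg/mL the changes were −0.26, −0.34 and −0.15 for APOC1, APOC3 and APOE and none was called (adjusted p = 0.07, 0.091 and 0.18). The call for APOC3 was also lost without replicate 2 (−0.34) or 3 (−0.38) at 500 µg/mL and that for APOE without replicate 2 (−0.19), while APOH, APOM and MTTP kept theirs in each of these refits.

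Among single libraries, replicate 1 of Rehmanniae Radix Preparata at 20 µg/mL stood apart from the other 2 of its group. It had 139 CPM of APOC1 against 181 and 197, 43.0 CPM of APOC3 against 62.7 and 67.6 and 2473 CPM of APOA2 against 3595 and 3583. With Angelicae Gigantis Radix at 500 µg/mL the 2 libraries had 85.5 and 51.6 CPM of APOC3, on either side of the 2 at 20 µg/mL (63.2 and 58.9 CPM), so no direction can be read there.

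APOH, the phospholipid-binding plasma protein, fell in 3 extracts. With Astragali Radix it went from 2896, 2774 and 2788 CPM to 2049, 1819 and 2156 CPM (log2 −0.49 ± 0.0671, adjusted p = 1.6e-08), so the extract held both the highest and the lowest group mean of the gene. With Cnidii Rhizoma it went from 2718, 2703 and 2812 CPM to 2140, 2479 and 2268 CPM (log2 −0.26 ± 0.0669, adjusted p = 0.0042). With Sagunja-tang it went from 2849 and 2787 CPM to 2175 and 2315 CPM (log2 −0.33 ± 0.0820, adjusted p = 0.0052), and the call was lost without replicate 1 at 500 µg/mL (−0.29, adjusted p = 0.092) or at 20 µg/mL (−0.31, 0.054). In all 3 extracts the libraries of the 2 doses did not overlap. With Rehmanniae Radix Preparata APOH was not called (log2 −0.14), and without the library of replicate 1 at 20 µg/mL, at 2061 CPM, it was (−0.27, adjusted p = 0.0073).

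Other measures moved with 500 µg/mL Astragali Radix. Genes of the mitochondrial genome took 25.8% ± 1.45 of its counts, against 16.1% ± 1.36 at 20 µg/mL and 14.2% ± 0.933 in vehicle (SD, n = 3 each). Leaving these genes out changed no call of a member. The TMM factors of the 3 libraries at 500 µg/mL, 0.784, 0.851 and 0.822, were the lowest of the series, so the size of the changes depends on this scaling. Scaled by library size alone, APOA1 had 1687 CPM at 500 µg/mL against 1467 in vehicle and APOA2 3122 against 2782. APOM had 87.2 against 78.2 CPM and APOB 6566 against 16245, and every member kept its direction against vehicle. This was not so for every member against 20 µg/mL, where the TMM factors were 1.02, 1.02 and 0.991. The TMM-scaled mean of APOM there was 89.7 CPM, so its rise from 20 µg/mL depended on the scaling. The same held for the uncalled value of APOA2, with a scaled mean of 3418 CPM at 20 µg/mL. The summed HepG2 markers stood at 30147 to 37125 CPM, against 41224 to 42421 at 20 µg/mL and 35851 to 36390 in vehicle, with ALB and AFP lower (log2 −0.62 and −1.16 against 20 µg/mL) and KRT8 and HNF4A higher (0.89 and 0.28). Summed fibroblast markers, mostly PDGFRB, stood at 15.6 to 19.6 CPM, against 6.44 to 6.81 at 20 µg/mL, with DCN at 0. Summed leukocyte markers, mostly LYZ, stood at 1247 to 1502 CPM against 1326 to 1520, with PTPRC at 0. Of the 4 leukocyte markers tested, 2 were called higher and 2 lower against 20 µg/mL, with a median of 0.63. Summed endothelial markers stood at 1.96 to 3.2 CPM against 2.07 to 2.85. The part of these markers in the changes of the members was not tested. The 9 members together held 1.49% ± 0.206 of the counts, against 2.49% ± 0.0413 at 20 µg/mL, with APOB as the main part of the drop.

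Marker sums also moved in other extracts with called members. With Cnidii Rhizoma the HepG2 markers summed to 32852 to 33608 CPM at 500 µg/mL and 38476 to 41379 at 20 µg/mL, and with Sagunja-tang to 32361 to 34345 against 39224 to 40764 CPM. The fibroblast sums were 4.58 to 4.77 against 6.23 to 6.62 CPM and 3.94 to 4.23 against 7.17 to 7.3 CPM in these extracts, and the leukocyte sums 1131 to 1335 against 1332 to 1372 CPM and 1650 to 1688 against 1321 to 1518 CPM. With Paeoniae Radix, which raised APOM, the fibroblast markers summed to 18 to 18.7 CPM against 7.58 to 8.24 and the leukocyte markers to 2178 to 2458 CPM against 1374 to 1431, with DCN and PTPRC at 0. The part of these markers in the members' changes was not tested.

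The change with Astragali Radix also went with transcript length, most clearly among abundant genes. Over all tested genes the medians were 0.04 for up to 1 kb, 0.17 for 1 to 2 kb and 0.02 for 2 to 4 kb. They were −0.15 for 4 to 8 kb and −0.23 over 8 kb, so the shortest class was not the highest. Among genes of at least 50 CPM, the median change from 20 to 500 µg/mL was 0.61 for transcripts of up to 1 kb (94 genes), 0.35 for 1 to 2 kb (453), 0.15 for 2 to 4 kb (1316), −0.14 for 4 to 8 kb (1431) and −0.26 over 8 kb (397), on the log2 scale. APOB, with a longest transcript of 14121 bases, and MTTP, with 4092, are the longest members and fell, while the 5 that rose have between 604 bases (APOC3) and 1227 bases (APOA1). APOH fell although its transcript has 1176 bases, and APOA2, with 927, changed by 0.16. When each library was corrected for its trend on length and GC content, APOB (−0.57, adjusted p = 1.3e-08), APOH (−0.37, 7.6e-07), APOC1 (0.53, 4e-07) and APOC3 (0.37, 0.001) were still called. The values of APOA1 (0.04), APOE (0.06), APOM (0.08) and MTTP (−0.11) came close to 0 and were not called (adjusted p = 0.65, 0.35, 0.20 and 0.051). This correction was added after the trend was seen. It takes out the trends on length and on GC content together, and their separate parts were not tested. GC content of the longest transcript was 68.5% for APOE, 62.7% for APOA1, 60.4% for APOC3, 55.4% for APOC1 and 54.2% for APOA2. For APOM it was 50.6%, for APOB 43.5%, for APOH 42.9% and for MTTP 42.1%. In the other 6 extracts the medians by transcript length, for genes of at least 50 CPM, ran from −0.04 to 0.18. With the correction the calls of Cnidii Rhizoma, Sagunja-tang and Cinnamomi Cortex were kept.

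**Figure D3:**
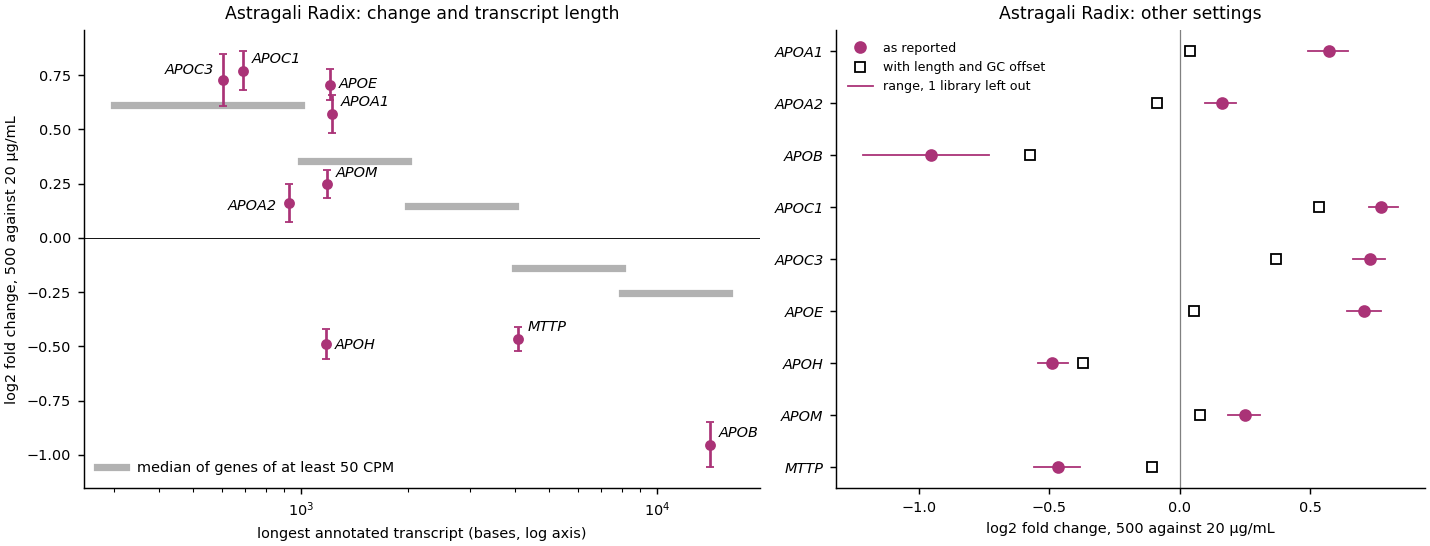
Left: change of the members from 20 to 500 µg/mL Astragali Radix (log2 scale, points with bars of 1 SE) against the length of the longest annotated transcript in bases (log axis), with grey bars for the median of genes of at least 50 CPM in 5 length classes, from 0.61 for up to 1 kb to −0.26 over 8 kb. Right: the same changes as reported (filled), their range when 1 library is left out (lines) and with a correction for length and GC content (open squares), which moved APOA1 from 0.57 to 0.04 and APOB from −0.95 to −0.57.

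At 100 against 20 µg/mL, members were called only with Astragali Radix, where APOC3, APOE and MTTP rose among 29.1% of genes called. Of the genes with a mean of at least 59.4 CPM, 43.4% were called there. APOA2 (0.22, adjusted p = 0.054) and APOC1 (0.22, 0.062) were just outside, and both passed in the fit of the compared groups alone (0.0079 and 0.015). No member was called in the other 6 extracts, where 0.18% of all genes were with Cnidii Rhizoma, 0.0539% with Sagunja-tang, 0.00599% each with Angelicae Gigantis Radix and Rehmanniae Radix Preparata, and 0% with Paeoniae Radix and Cinnamomi Cortex. At an unadjusted p below 0.05 in edgeR the only one in these 6 was APOC1 with Rehmanniae Radix Preparata (0.29), and DESeq2 called 0 in each.

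Whether an extract differed from the rest was tested directly, as its change from 20 to 500 µg/mL against the mean change of the other 6. All 9 members passed with Astragali Radix, where 64.8% of genes did (6 with the correction for length and GC content), 6 with Cnidii Rhizoma (22.6%), 4 with Sagunja-tang (8.08%), 2 with Paeoniae Radix (22.6%), 1 each with Cinnamomi Cortex (18.4%) and Angelicae Gigantis Radix (11%) and none with Rehmanniae Radix Preparata (10.6%). Of the genes with a mean of at least 59.4 CPM, 82.1% passed with Astragali Radix, 38.8% with Cnidii Rhizoma, 15.9% with Sagunja-tang and 37.6% with Paeoniae Radix. The shares were 30.5% with Cinnamomi Cortex, 20% with Angelicae Gigantis Radix and 17.7% with Rehmanniae Radix Preparata. APOM passed in every extract but Rehmanniae Radix Preparata, upward in 3 and downward in 3. The values of a gene balance over the extracts by construction, so upward ones bring downward ones elsewhere.

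Comparisons with vehicle cross code prefixes, since the 3 vehicle libraries carry a prefix of their own, so the prefix and the exposure cannot be told apart in them. The titles nevertheless name batch D for vehicle and extracts alike. Even at 20 µg/mL the mean of the 7 extracts differed from vehicle in 4 members, all higher, where 32.3% of all genes were called (15.5% higher). Of the genes with a mean of at least 59.4 CPM, 48.7% were called. APOA2 was higher by 0.38 ± 0.0705 on the log2 scale (adjusted p = 6e-05), APOH by 0.25 (0.00032), APOM by 0.23 (0.00071) and MTTP by 0.20 (0.00034). Vehicle had 2810, 2602 and 2393 CPM of APOA2, while apart from 1 library of Rehmanniae Radix Preparata each library at 20 µg/mL had at least 3201 CPM. APOA1 was at −0.15 (adjusted p = 0.084) and passed without vehicle replicate 3 (−0.23, 0.023).

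Each extract at 500 µg/mL was then set against the same 3 vehicle libraries, so these comparisons are not independent of each other. Of the genes with a mean of at least 59.4 CPM, 84.8% were called with Astragali Radix, 64.5% with Paeoniae Radix and 47.2% with Cnidii Rhizoma. The shares were 40% with Sagunja-tang, 38% with Angelicae Gigantis Radix, 31.9% with Rehmanniae Radix Preparata and 25.6% with Cinnamomi Cortex. With Astragali Radix all 9 members were called, where 69.8% of genes were: APOE by 0.95 ± 0.0705, APOC3 by 0.94 ± 0.122, APOC1 by 0.83, APOA1 by 0.59, APOA2 by 0.55 and APOM by 0.54 higher, and APOB by −0.92 ± 0.105, MTTP by −0.26 and APOH by −0.19 lower. The call for APOH was lost without vehicle replicate 1 (−0.15) or replicate 2 at 500 µg/mL (−0.12). With the correction for length and GC content 6 were called: APOA1 (0.061, adjusted p = 0.48) and APOH (−0.077, 0.26) were lost and MTTP turned to 0.0821 (0.14). With Sagunja-tang 6 were called among 25.6% of genes: APOM (0.54), APOC1 (0.44), APOA2 (0.35) and MTTP (0.27) were higher, and APOC3 (−0.69) and APOA1 (−0.26) lower. Paeoniae Radix had APOM (0.80 ± 0.0725), APOA2 (0.46) and MTTP (0.36) higher, among 46.4% of genes called.

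Cnidii Rhizoma had APOC1 (−0.45) and APOA1 (−0.40) lower than vehicle, among 30.9% of genes called. The other 5 members lowered from 20 to 500 µg/mL were not called against vehicle: APOH had 2296 against 2285 CPM, APOE 793 against 838, APOM 69.7 against 73.2, MTTP 50.9 against 53.1 and APOC3 47.6 against 55.3 CPM. APOC3 was called lower without replicate 1 at 500 µg/mL (log2 −0.36, adjusted p = 0.042) and without the filter on low counts (−0.22, 0.0062). Rehmanniae Radix Preparata had APOA2 higher (0.39) and APOA1 lower (−0.33), among 20% of genes called. Cinnamomi Cortex had APOA2 (0.27) and APOH (0.21) higher, among 14.7%. Angelicae Gigantis Radix had MTTP higher (0.24) and APOA1 lower (−0.27), among 22.3%. APOA1 was thus lower than vehicle in 4 of the 7 extracts and APOA2 higher in 5. These tallies reuse the same 3 vehicle libraries and do not count independent results. APOA2 was also higher than vehicle at the mean of 20 µg/mL and was called in no extract at 500 against 20 µg/mL. Several of the calls against vehicle rested on single libraries. With Cinnamomi Cortex, APOA2 was lost without vehicle replicate 2 or 3 or any 1 of the 3 libraries at 500 µg/mL (0.21 to 0.29), and APOH without vehicle replicate 2 or 3 or replicate 1 or 2 at 500 µg/mL (0.18 to 0.21). With Angelicae Gigantis Radix, APOA1 was lost without vehicle replicate 1 or 2 or either library at 500 µg/mL (−0.32 to −0.22), and MTTP without replicate 3 at 500 µg/mL (0.21). With Sagunja-tang, whose 2 libraries overlapped vehicle for APOA1, that gene was lost without vehicle replicate 1 or 2 or replicate 2 at 500 µg/mL (−0.23 to −0.14), and APOA2 without replicate 2 at 500 µg/mL (0.32).

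Samul-tang had 1 library per dose, so its values have no replicate check. From 20 to 100 to 500 µg/mL, APOC3 went from 59.0 to 53.4 to 41.0 CPM, APOM from 86.2 to 85.6 to 72.0, APOH from 2722 to 2574 to 2411 and APOA1 from 1310 to 1327 to 1166 CPM. MTTP went from 59.2 to 59.9 to 64.8 CPM and APOC1 from 202 to 207 to 189 CPM. APOB stood at 14852, 14684 and 14637 CPM, APOA2 at 3282, 3240 and 3031 CPM and APOE at 966, 916 and 881 CPM.

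The wider set of genes around these members was read from lists of other apolipoproteins (13 tested), assembly and export of lipoproteins (22), HDL formation (9), uptake and lipase control (13), regulators of apolipoprotein genes (27) and other secreted liver proteins (20). The last shares ALB and SERPINA1 with the HepG2 markers. With Astragali Radix, where 34.2% of all genes were higher and 35.3% lower, 14 of the 22 assembly genes were higher and 4 lower, with a median of 0.35. Of these, PLIN2, a coat protein of lipid droplets, rose by 1.89 to 976 CPM and CIDEC, which enlarges droplets, by 2.01 to 11.5 CPM, while MIA2, which helps load large cargo at the exit sites of the endoplasmic reticulum, fell by 1.13. Of the other apolipoproteins 7 were higher and 1 lower: APOA4 rose by 3.04 to 23.3 CPM from 2.83, APOL1 by 1.32 and SAA4 by 0.94. Of the HDL genes 3 were higher and 5 lower, with the HDL receptor SCARB1 up by 0.87 and the lipid exporter ABCA1 at −0.92 and the cholesterol-esterifying enzyme LCAT at −1.13.

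In the same comparison 7 uptake and lipase genes were higher and 2 lower, among them the lipase inhibitor ANGPTL4 (1.67) and the lipolysis-stimulated receptor LSR (0.99). Of the regulators 14 were higher and 10 lower: the bile acid receptor NR1H4 fell by 1.5 while its target NR0B2 rose by 1.46, and FOXA1 fell by 1.26. Of the 20 secreted proteins 6 were higher and 8 lower, with the fibrinogen chains FGA and FGG at −1.17 and −1.06 and ITIH2 at −0.84. The correction for length and GC content was not examined gene by gene for these lists.

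Cnidii Rhizoma lowered genes of several lists along with the members, against 9.56% of all genes higher and 8.83% lower. Of the secreted proteins 11 of 20 were lower and none higher, with a median of −0.22, among them ITIH1 (−0.53) and vitronectin, VTN (−0.38). Of the regulators 8 of 27 were lower and none higher, led by SREBF1 (−0.64), a master regulator of lipid synthesis, with FOXA1 at −0.36 and SREBF2 at −0.26. Uptake and lipase genes had 7 of 13 lower and 1 higher, with ANGPTL4 at −0.68. The assembly genes split, with 4 higher and 3 lower: CES1, a lipid hydrolase, rose by 0.60, while CIDEB, which promotes lipidation of the particles, and DGAT2, a triglyceride synthase, fell (−0.78 and −0.35). LCAT (−0.47), ABCA1 (−0.30) and LIPG (−0.24) were the 3 of 9 HDL genes that fell, and APOA5 (−0.47) was the 1 of 13 other apolipoproteins.

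With Sagunja-tang, where 5.7% of genes were higher and 4.73% lower, 12 of 20 secreted proteins were lower and 1 higher, with a median of −0.31. ITIH1 changed by −0.92, FGA by −0.51 and FGG by −0.53. Of the regulators 7 of 27 were lower and none higher, among them NR1H4 (−0.52), CEBPA (−0.44) and PPARA (−0.24). DGAT2 (−0.50) and CIDEB (−0.58) fell as with Cnidii Rhizoma, VMP1 rose by 0.23, and clusterin, CLU (−0.40), and LCAT (−0.45) fell.

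Paeoniae Radix, with 16.8% of genes higher and 13.9% lower, raised 5 of 13 other apolipoproteins and lowered 1. The apolipoprotein L genes APOL2, APOL1 and APOL6 rose by 0.78, 0.64 and 0.47. Of the assembly genes 8 of 22 were higher and 2 lower: LPIN1, a phosphatidate phosphatase, rose by 0.975, while DGAT1 (−0.73) and DGAT2 (−0.62) fell. The uptake list had 6 of 13 higher and 1 lower, with the receptor VLDLR up by 1.29 and the sorting receptor SORT1 by 0.42. Of the regulators 9 were higher and 7 lower, with NR1H4 at −0.88, CEBPA at −0.68 and SREBF2 at 0.39, and of the HDL genes 1 was higher (LIPG, 0.37) and 3 lower (LIPC, −0.77, and PON3, −0.71, among them). Secreted proteins had 3 of 20 higher, such as AHSG (0.40), and 7 lower, such as FGG (−0.56).

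The remaining extracts moved few of these genes. Angelicae Gigantis Radix lowered 4 secreted proteins, among them ITIH1 (−0.56) and VTN (−0.26), and 2 regulators, SREBF1 (−0.30) and NR0B2 (−0.33), with 0.443% of all genes higher and 0.611% lower. Rehmanniae Radix Preparata lowered 4 secreted proteins, ITIH1 (−0.34), VTN (−0.25) and FGA (−0.19) among them, and raised SREBF1 (0.24), the phospholipid remodelling enzyme LPCAT3 (0.34) and SAA4 (0.36), with 0.785% higher and 0.623% lower. Both Angelicae Gigantis Radix and Cinnamomi Cortex also lowered 1 uptake gene. Cinnamomi Cortex lowered ITIH1 (−0.30), LIPG (−0.23), LPIN1 (−0.33) and PPARA (−0.16), with 0.264% higher and 0.545% lower.

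The genes whose 25 group means of log2 CPM ran most closely with each member were taken among genes of at least 5 CPM. These correlations describe groups that share the high-dose Astragali Radix libraries, so they are also given over the 22 groups without that extract. APOA1 ran with SLC25A1 (r = 0.95, 0.85 without the extract), APOE with RNF185 (0.97 and 0.73) and APOB with ZNF252P (0.97 and 0.78). APOA2 ran with the liver factor FOXA2 (0.87 and 0.89) and APOH with the fibrinogen gene FGB (0.85 and 0.74), second after LINC02413. Vehicle is among the 22 groups, and FOXA2, like APOA2, was higher at the mean of 20 µg/mL than in vehicle (log2 0.45 for FOXA2). The part of this difference in their correlation was not tested. APOM ran with AGR2 (0.86 and 0.84), MTTP with FAM169A (0.90 and 0.88), APOC1 with SLC25A5 (0.90 and 0.79) and APOC3 with SIAH2 (0.88 and 0.80). Among the members, APOA1 and APOE ran together (r = 0.90, 0.57 without the extract), while APOC1 and APOC3 did so weakly over 25 groups (0.36) and in opposite directions over 22 (−0.35).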

How the data were processed

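RNA of HepG2 cells was sequenced in 60 libraries. The authors deposited a table of expected counts per gene, estimated with RSEM 1.3.3, which need not be whole (8.21% of values were not, at a tolerance of 1e-09). Per the submitters' processing notes, STAR 2.7.3a and the GRCh38 build were used too, with quality control by FastQC 0.11.9 and Trim Galore 0.6.5, while the annotation release and strand setting are not given in the sources used here. Of 270 columns, 210 belong to no sample used here and were left out. Groups and doses came from the labels. The counts were rounded, filtered with filterByExpr of edgeR 4.0.16 (16692 of 60675 genes kept), scaled by TMM factors (0.784 to 1.10) and fitted by the quasi-likelihood test with 1 coefficient per group and 35 residual degrees of freedom, in R 4.3.3. All tests were two-sided, adjusted by Benjamini-Hochberg within each comparison and called below 0.05. The fit was also run on simulated counts with known changes, for the comparison of 500 with 20 µg/mL Cnidii Rhizoma only. Other extracts and comparisons were not covered. Replicates of one number in the 500 and 20 µg/mL groups of an extract had correlations of −0.0617 to 0.0978 in their deviations from the group means. Replicate numbers were not treated as pairs in the main fit, although this check cannot exclude pairing.

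The text names all 9 members, of each other list at most 3 called genes with the smallest p in each comparison of 500 with 20 µg/mL, and for each member the genes nearest in pattern. Marker genes and genes overlapping a member are named besides. Members and lists were chosen with earlier results of these data known. Some called genes of the lists are not reported here. Alternatives were DESeq2 1.42.0, its size factors, no filter, only the compared groups, no mitochondrial genes, a replicate block, leaving out each library, and 2 added after seeing the data.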

Additional observations from a re-analysis of the deposited data

Results flagged for a closer look

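The change of a member from 20 to 500 µg/mL in an extract was set against the mean change in the other 6 extracts, as a test of the difference itself (edgeR quasi-likelihood test, Benjamini-Hochberg over 16692 genes, log2 scale). It passed for 23 of the 63 member and extract pairs. These tests share the other extracts and are not independent of each other.

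With Astragali Radix all 9 members differed, where 64.8% of all genes and 82.1% of those with a mean of at least 59.4 CPM did. APOC3 (0.99), APOE (0.77), APOC1 (0.67), APOA1 (0.65), APOM (0.28) and APOA2 (0.22) changed upward relative to the other extracts, and APOB (−0.88), MTTP (−0.44) and APOH (−0.31) downward. The adjusted p of APOA2 was 0.048, and those of the others were at most 0.00073. With the correction for length and GC content 6 of the 9 passed: APOA1 was at 0.14 (adjusted p = 0.13), MTTP at −0.08 (0.18) and APOA2 at −0.007 (0.96). APOA2 was also lost in 21 of 36 refits that left out 1 library (0.16 to 0.24, adjusted p = 0.0505 to 0.205).

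With Cnidii Rhizoma 6 members differed, all downward, where 22.6% of genes did: APOC1 (−0.62), APOC3 (−0.36), APOM (−0.36), APOA1 (−0.33), APOE (−0.32) and MTTP (−0.17). With Sagunja-tang 4 differed, where 8.08% did: APOC1 (0.45), APOM (0.36) and MTTP (0.22) upward and APOC3 (−0.72) downward. With Paeoniae Radix APOM (0.55) and MTTP (0.27) did, among 22.6% of genes. APOM differed downward with Cinnamomi Cortex (−0.38, among 18.4% of genes) and Angelicae Gigantis Radix (−0.36, among 11%). Of the genes with a mean of at least 59.4 CPM, 38.8% differed with Cnidii Rhizoma, 15.9% with Sagunja-tang and 37.6% with Paeoniae Radix. The shares were 30.5% with Cinnamomi Cortex and 20% with Angelicae Gigantis Radix.

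Astragali Radix enters the mean of every other extract. Set against the other 5 without it, the differences of APOM with Angelicae Gigantis Radix (−0.33, adjusted p = 0.062), of APOA1 (−0.22, 0.19), APOC3 (−0.20, 0.47) and APOE (−0.20, 0.12) with Cnidii Rhizoma, and of APOC3 (−0.57, 0.088) and MTTP (0.15, 0.48) with Sagunja-tang no longer passed.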

How the results depend on the processing

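Over the 261 values of a member in a comparison, the side of the threshold and, where called, the direction were kept in 256 with DESeq2, 260 with its size factors, all 261 without mitochondrial genes, 234 without the low-count filter, 250 with a replicate block and 238 with a correction for length and GC content. The last turned the sign of 23 values, 21 of them not called, such as APOA2 with Astragali Radix at 500 against 20 µg/mL (−0.0865). The 2 called ones were these: MTTP with 500 µg/mL Astragali Radix against vehicle was 0.0821 and APOA2 in the change of Astragali Radix against the other 6 was −0.007. The correction and the mean without Astragali Radix were chosen after seeing the data. Leaving out 1 library kept 3332 of 3456 values on their side.

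Counts of members called moved as follows, and the cause was not tested. Without the filter they were, for Angelicae Gigantis Radix, 1 (500 against 20 µg/mL), 5 (against vehicle) and 2 (against the other 6), for Rehmanniae Radix Preparata 1, 1 at 100 µg/mL and 1 against the other 6, for Cnidii Rhizoma against vehicle 4, for Astragali Radix at 100 µg/mL 5, for Cinnamomi Cortex against the other 6 3, and for the mean of 20 µg/mL 8. DESeq2 gave 1 and 4 for Angelicae Gigantis Radix at 500 against 20 µg/mL and against vehicle. The fit of the compared groups alone gave 5 for Angelicae Gigantis Radix, 5 for Paeoniae Radix and 4 for Rehmanniae Radix Preparata against vehicle, 2 for Paeoniae Radix at 500 against 20 µg/mL and 5 for Astragali Radix at 100 µg/mL. The length and GC correction gave 4 for Astragali Radix, 1 for Angelicae Gigantis Radix and 2 for Paeoniae Radix at 500 against 20 µg/mL, 5 for Angelicae Gigantis Radix against vehicle and 3 for Cnidii Rhizoma against the other 6. Without Astragali Radix among the others, the counts were 0, 3 and 2 for Angelicae Gigantis Radix, Cnidii Rhizoma and Sagunja-tang.

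With the replicate block, 4 members were called for Paeoniae Radix at 500 against 20 µg/mL, namely APOM, APOC1, APOC3 and MTTP. MTTP (0.13, adjusted p = 0.048) also passed there with the length and GC correction (0.16, 0.032). The block also called APOB with Sagunja-tang at 500 against 20 µg/mL (−0.19, adjusted p = 0.02). It called 1 member for Angelicae Gigantis Radix at 500 against 20 µg/mL and 1 against vehicle, and 5 for Astragali Radix at 100 µg/mL. Same-numbered libraries had correlations of −0.0617 to 0.113 in their deviations from the group means, over the dose pairs of each extract. In groups of 2 libraries the deviations mirror each other, so this check cannot exclude that same-numbered libraries are paired.

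Leaving out 1 library, the number of members called ranged from 3 to 7 for Cnidii Rhizoma, 0 to 1 for Rehmanniae Radix Preparata and 0 to 1 for Cinnamomi Cortex at 500 against 20 µg/mL, and from 1 to 3 for Angelicae Gigantis Radix and 0 to 2 for Cinnamomi Cortex against vehicle. Against the other 6 it ranged from 0 to 1 for Angelicae Gigantis Radix, 1 to 2 for Paeoniae Radix, 3 to 7 for Cnidii Rhizoma, 0 to 1 for Rehmanniae Radix Preparata, 1 to 2 for Cinnamomi Cortex and 0 to 4 for Sagunja-tang.

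Genes called at 500 against 20 µg/mL moved from 176 to 280 (DESeq2), 388 (no filter), 46 (compared groups) and 279 (block) for Angelicae Gigantis Radix, from 135 to 210 (no filter) and 30 (compared groups) for Cinnamomi Cortex, from 235 to 432, 17 and 27 (block) for Rehmanniae Radix Preparata and from 1741 to 2931 (block) for Sagunja-tang.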
